A study of Mus musculus with 5 samples.

Results

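Complex I (NADH:ubiquinone oxidoreductase) genes were described here in mouse atria. The compared animals carried 1 copy of MRC2 with the amino acid change E990G (het) or were wild-type (WT). The members were all genes whose symbol begins with Nduf in the authors' deposited table of het against WT, which gave 50 of 14927 genes. The RSEM tables of single libraries hold 53 genes so named, of which the other 3 are not members. The members were joined by gene identifier to the RSEM tables of each library and sorted by role into 7 nuclear core subunits, 30 accessory subunits, 8 assembly factors named Ndufaf, 2 genes now assigned to another complex (Ndufa4 and Ndufa4l2) and 3 copies or pseudogenes. All 50 passed the expression filter and were tested.

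The series describes 8 WT and 7 het mice, aged 4 to 10 months, whose atria were snap-frozen. MRC2 takes up collagen in fibroblasts and related cells. Libraries of 3 het mice (het 5, 6 and 7) and 2 WT mice (WT 7 and 8) were analysed here, all of batch 2 in the labels and each made from polyA-selected RNA of whole atria. The labels name no strain, sex, age of a single animal, treatment or origin of the allele. Each library is labelled as a separate animal, and the p-values measure the spread between these 5 animals only.

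Complex I passes electrons from NADH through a flavin and a chain of iron-sulfur clusters to ubiquinone and pumps protons across the inner mitochondrial membrane. Core subunits carry out this catalysis: the nuclear ones form the peripheral arm in the matrix, and the mitochondrially encoded ones form most of the membrane arm. Accessory subunits surround and stabilise the core, and assembly factors build modules of the complex without staying in it. In heart muscle the complex is abundant, since contraction rests on oxidative metabolism.

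Total expected counts ran from 17784601 (WT 8) to 28353091 (het 7) per library. Mitochondrially encoded genes took 12.98% to 17.67% of counts. Genes shorter than 1000 bases, mitochondrial ones left out, took 11.56% to 14.06% of counts in het and 15.57% to 16.23% in WT, without overlap. Atrial markers were high in all 5 libraries, and the lung epithelium list stood at or near 0. Ucp1, the defining brown adipocyte gene, was at 33.8 CPM in het 7 and at most 0.935 CPM elsewhere. The Y-linked gene Ddx3y had 938 counts in WT 7 and at most 3 in the other libraries, while Xist had 21.5 counts in WT 7 and 6117 to 15280 elsewhere, so WT 7 carried the male pattern and WT 8 and all het libraries the female one. Over the 4 libraries with the female pattern (WT 7 left out), the median log2 fold change of the subunits was -0.46, against -0.59 over all 5. In that fit WT 8 was the only WT library. Sex was not balanced between the groups, and its part in the difference was not tested.

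Of the 50 Nduf genes, 11 were lower in het and 0 were higher (edgeR quasi-likelihood test, adjusted p under 0.05). Across all 16412 genes tested, 2.66% were lower and 2.99% higher. The 11 genes were 4 core and 7 accessory subunits, with log2 fold changes from -0.50 to -0.82. No assembly factor, copy or member of another complex passed the test. Fold changes were below 0 for 48 of the 50 members, against 50.1% of all genes, and Ndufs1 and Ndufaf4 were the 2 above 0. At an unadjusted p under 0.05, 34 of the 50 members were counted, all with values below 0, against 24.7% of all genes. For 35 members every het library was below every WT library in CPM (counts scaled to the library total adjusted by edgeR's TMM factor). For 0 members the reverse held. Each pattern was seen in 21.1% of all genes.

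The median log2 fold change was -0.59 over the 37 subunits, -0.50 over the core, -0.60 over the accessory subunits and -0.38 over the assembly factors, against -0.0014 over all genes tested. By position in the complex, 4 of 16 peripheral arm subunits and 7 of 20 membrane arm subunits were lower, with medians of -0.55 and -0.59. The classes were not tested against each other. In TPM (scaled to transcript length and library total), 32 members had every het library below every WT library, against 11.2% of all genes.

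These calls rested on the full set of libraries and on the scale of the counts. With het 5, 6 or 7 left out, 0 of the 50 members were lower, and so were 0.00613%, 0.0367% and 0% of all genes. Without WT 7, 2 members were lower (Ndufa8 and Ndufs7), against 0.784% of all genes. Without WT 8, 6 were lower (Ndufa11, Ndufb6, Ndufb8, Ndufb9, Ndufs5 and Ndufs7), against 1.66%, and 1 was higher (Ndufaf4), against 3.36%. With the trends of each library along transcript length and GC content removed, 0 members were called and the subunit median was -0.21.

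**Figure D1:**
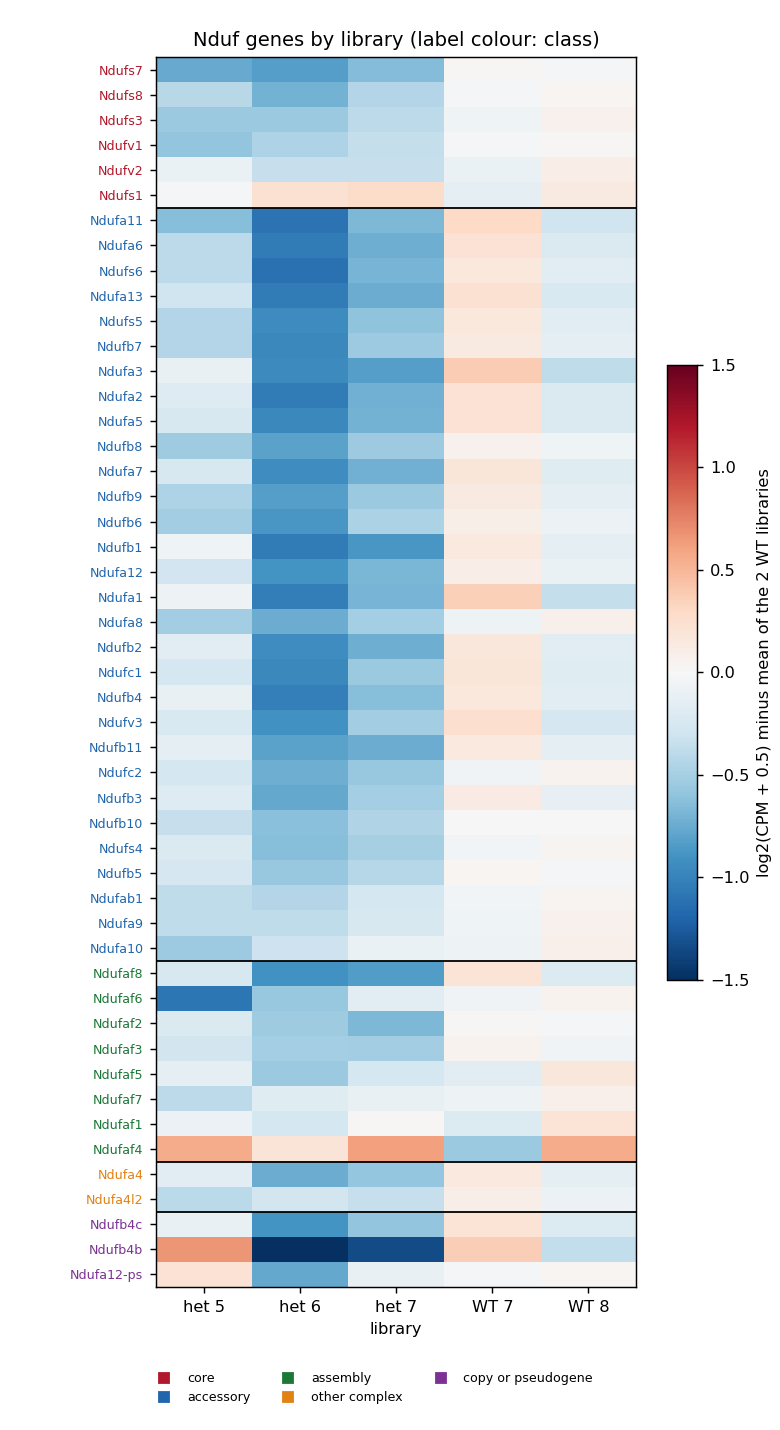
Rows are Nduf genes grouped by class, columns are the 5 libraries, and colour gives log2(CPM + 0.5) minus the mean of the 2 WT libraries. Most rows are blue in all 3 het libraries, deepest in het 6, while Ndufs1 and Ndufaf4 are not.

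Among the 7 nuclear core subunits, 4 were lower in het, among them Ndufs7, Ndufs3 and Ndufs8 of the ubiquinone-reducing module of the peripheral arm. Ndufs7 (ENSMUSG00000020153) carries the last iron-sulfur cluster before ubiquinone. Its level was 219.6, 208 and 236 CPM in het 5, 6 and 7 and 376 and 365 CPM in WT 7 and 8. All het libraries were well below both WT libraries, and the log2 fold change was -0.75 (SE 0.13, edgeR adjusted p = 0.023).

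Ndufs8 (ENSMUSG00000059734) holds iron-sulfur clusters that hand electrons to Ndufs7. Counts of Ndufs8 gave 169, 138 and 167 CPM in het 5, 6 and 7 and 222 and 231 CPM in WT 7 and 8. Het 6 was lowest and the WT libraries lay close together, with a log2 fold change of -0.52 (SE 0.14, edgeR adjusted p = 0.046). Ndufs3 (ENSMUSG00000005510), a cofactor-free subunit of the same module, was at 161, 162 and 181 CPM in het 5, 6 and 7 and 227 and 248 CPM in WT 7 and 8. The groups were again apart, with a log2 fold change of -0.50 (SE 0.13, edgeR adjusted p = 0.044).

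Ndufv1, Ndufv2 and Ndufs1 encode the NADH-oxidising end of the arm, and none of them passed the test. The modules were not tested against each other. With length and GC trends removed, Ndufv1 stood at -0.21, Ndufv2 at -0.14 and Ndufs1 at 0.012. Ndufs7, Ndufs3 and Ndufs8 then stood at -0.18, -0.14 and -0.086. Ndufv1 (ENSMUSG00000037916), which binds NADH and the flavin, was at 413, 449 and 486 CPM in het 5, 6 and 7 and 616 and 627 CPM in WT 7 and 8. Its libraries did not overlap either, and its log2 fold change was -0.47 (SE 0.13, edgeR adjusted p = 0.059). Ndufv2 (ENSMUSG00000024099), an iron-sulfur partner of Ndufv1, stood at 317, 267 and 266 CPM in het 5, 6 and 7 and 318 and 363 CPM in WT 7 and 8. Here het 5 lay just under WT 7, and the log2 fold change was -0.26 (SE 0.14, edgeR adjusted p = 0.268). Without WT 8 the value was -0.15. Ndufs1 (ENSMUSG00000025968), the largest subunit of the complex and the carrier of several iron-sulfur clusters, was at 487, 581 and 599 CPM in het 5, 6 and 7 and 449 and 546 CPM in WT 7 and 8. Its groups overlapped, with WT 7 lowest and het 7 highest, and its log2 fold change was 0.16 (SE 0.15, edgeR adjusted p = 0.552). With one library left out, Ndufs1 ranged from 0.029 (without WT 7) to 0.32 (without WT 8).

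Levels per length put these core genes in the order Ndufs7, Ndufv1, Ndufs8, Ndufs3, Ndufv2 and Ndufs1. The mean over the 5 libraries was 717 TPM for Ndufs7 (SD 151) and 233 TPM for Ndufs1 (SD 43.7). Ndufv1 and Ndufs8, at 419 and 418 TPM, were neighbours that did not differ beyond their spread: Ndufv1 was above Ndufs8 in 3 of 5 libraries. Ndufs3 was above Ndufv2 in 4 of 5 libraries, and the other neighbours kept their order in all 5.

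All 30 accessory subunits had log2 fold changes below 0, from -0.82 (Ndufa11) to -0.31 (Ndufa10). The 7 that were lower in het all belong to the membrane arm. Accessory subunits of the peripheral arm, none of them called, ran from -0.72 (Ndufa6, SE 0.20) to -0.34 (Ndufa9, SE 0.13). The arms were not tested against each other. Ndufa11 (ENSMUSG00000002379) spans the membrane beside the core and touches complex III in respiratory supercomplexes. It was counted at 114, 82.5 and 112 CPM in het 5, 6 and 7 and 219 and 145 CPM in WT 7 and 8. Its het libraries were below both WT libraries, which themselves lay far apart, and its log2 fold change was -0.82 (SE 0.20, edgeR adjusted p = 0.046). Without WT 7 it was -0.49 (edgeR adjusted p = 0.166). Ndufb8 (ENSMUSG00000025204), whose protein is a common marker of assembled complex I on blots, was at 214, 178 and 213 CPM in het 5, 6 and 7 and 325 and 295 CPM in WT 7 and 8. The gap between groups exceeded the spread within each, and Ndufb8 fell by 0.62 on the log2 scale (SE 0.14, edgeR adjusted p = 0.031).

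A trio of called genes, Ndufa8, Ndufs5 and Ndufb7, encodes subunits with paired cysteine motifs on the intermembrane face of the membrane arm. Ndufa8 (ENSMUSG00000026895) had 249, 214 and 252 CPM in het 5, 6 and 7 and 341 and 378 CPM in WT 7 and 8. WT 8 was highest and het 6 lowest, without overlap, and the log2 fold change was -0.59 (SE 0.14, edgeR adjusted p = 0.033). Ndufs5 (ENSMUSG00000028648) had 89.4, 62.8 and 79.7 CPM in het 5, 6 and 7 and 136 and 108 CPM in WT 7 and 8. The order of libraries differed from Ndufa8 in that WT 7 was highest, and Ndufs5 fell by 0.66 on the log2 scale (SE 0.16, edgeR adjusted p = 0.041). Ndufb7 (ENSMUSG00000033938) had 126, 87.7 and 117 CPM in het 5, 6 and 7 and 188 and 156 CPM in WT 7 and 8. Het 6 was lowest and WT 7 highest, with no overlap, and the log2 fold change was -0.64 (SE 0.16, edgeR adjusted p = 0.044).

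The remaining called genes, Ndufb6 and Ndufb9, encode subunits of the distal part of the membrane arm. Ndufb6 (ENSMUSG00000071014) was at 69.5, 54.3 and 71.8 CPM in het 5, 6 and 7 and 106 and 93.8 CPM in WT 7 and 8. Its groups did not overlap, and its log2 fold change was -0.61 (SE 0.14, edgeR adjusted p = 0.034). Ndufb9 (ENSMUSG00000022354), a LYR-motif protein that binds the acyl carrier subunit, was at 206, 161 and 194 CPM in het 5, 6 and 7 and 312 and 260.0 CPM in WT 7 and 8. Every het library was again lower, and Ndufb9 fell by 0.62 on the log2 scale (SE 0.15, edgeR adjusted p = 0.036).

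Of the 23 accessory subunits that did not pass the test, Ndufb10 and Ndufa12 had the smallest p and the highest TPM. Ndufb10 (ENSMUSG00000040048), another membrane arm subunit, was at 336, 278 and 313 CPM in het 5, 6 and 7 and 427 and 429.6 CPM in WT 7 and 8. The 3 het libraries were all lower, with a log2 fold change of -0.47 (SE 0.14, edgeR adjusted p = 0.059). Ndufa12 (ENSMUSG00000020022), a late-joining peripheral arm subunit, was at 221, 144 and 168 CPM in het 5, 6 and 7 and 288 and 253 CPM in WT 7 and 8. Its groups did not overlap and its log2 fold change was -0.61 (SE 0.17, edgeR adjusted p = 0.06). The other 21 were Ndufa1, Ndufa2, Ndufa3, Ndufa5, Ndufa6, Ndufa7, Ndufa9, Ndufa10, Ndufa13, Ndufab1, Ndufb1, Ndufb2, Ndufb3, Ndufb4, Ndufb5, Ndufb11, Ndufc1, Ndufc2, Ndufs4, Ndufs6 and Ndufv3. Their log2 fold changes ran from -0.72 (Ndufa6) to -0.31 (Ndufa10). Ndufab1 is the mitochondrial acyl carrier protein, which sits in both arms and also serves fatty acid and iron-sulfur cluster synthesis. SEs were widest for the shortest genes, Ndufa1 (0.38) and Ndufa3 (0.38).

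**Figure D2:**
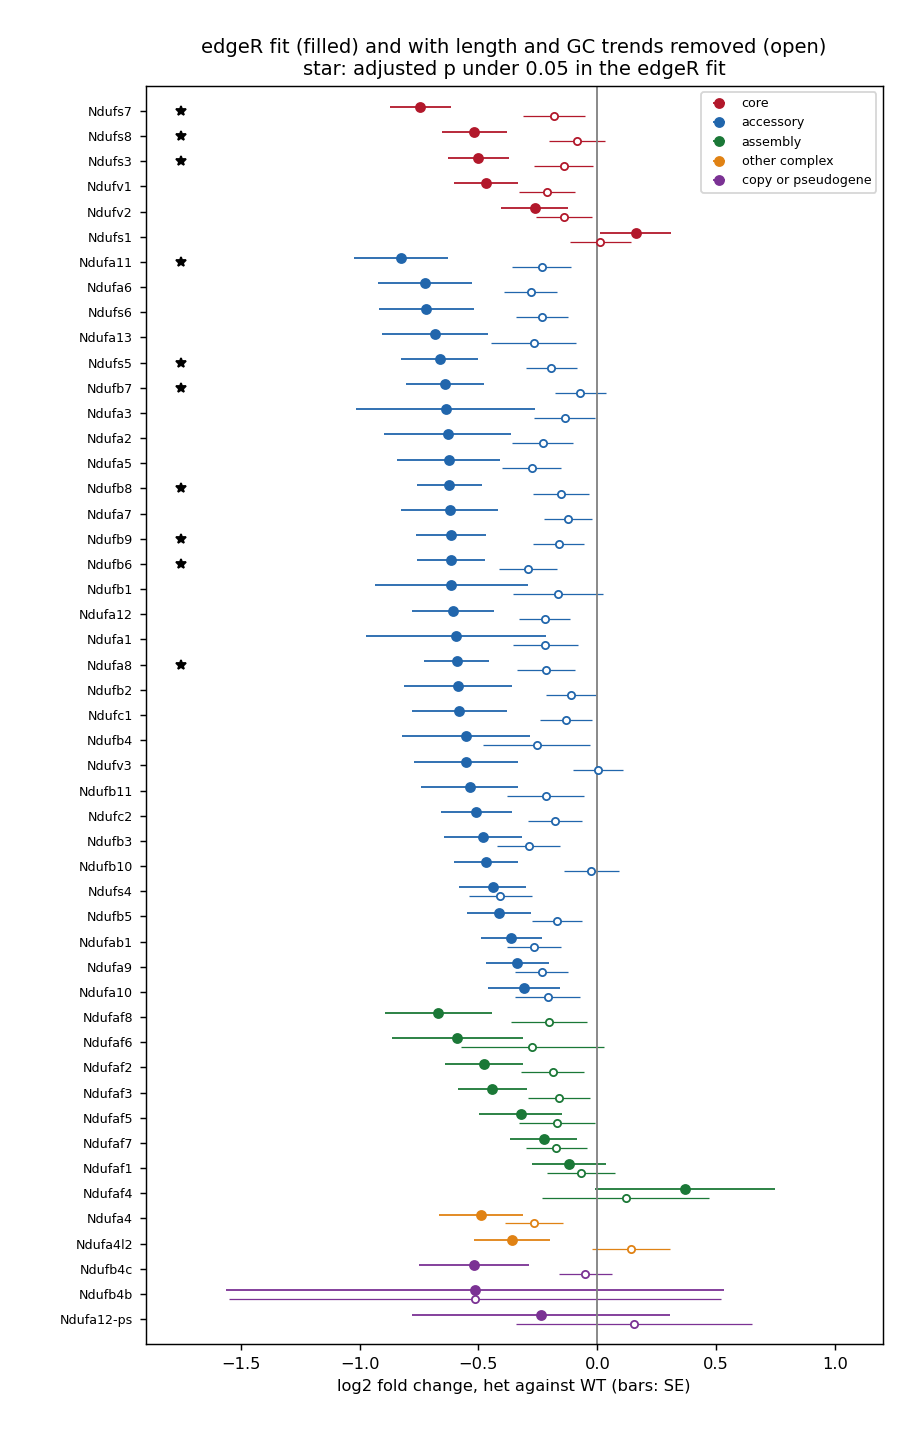
Each row is a Nduf gene; filled points give the edgeR log2 fold change of het against WT and open points the same with length and GC trends removed, with SE bars. Starred genes passed the test in the edgeR fit, and the open points lie nearer to 0 for most members.

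Promoter sequence was examined because fold changes of most subunits were below 0. RefSeq windows of the GRCm38.p6 build, 250 bases before to 50 after the start site, were found for 42 of the 50 members (44 windows). Both strands were searched for NRF1 (GCGCA, any base, then GCGC), YY1 (AAGATGGCG), GABP and other ETS factors (CCGGAAG) and the estrogen-related receptors (TCAAGGTCA), factors known to act at respiratory chain genes. The NRF1 letters were in 10 of 44 member windows (22.7%) and in 4.60% of all 32851 windows. YY1 letters were in 6 (13.6%) against 1.40%, GABP letters in 6 (13.6%) against 8.86%, and the receptor letters in 0 against 0.423%. Of the 9 windows of genes that were lower in het, 3 held NRF1, 1 YY1 and 4 GABP letters. The 250 bases before the start site are shown for 4 such genes, with the match in capitals: NRF1 letters 60, 30 and 98 bases before the start of Ndufa11, Ndufa8 and Ndufs5, and GABP letters 20 bases before that of Ndufb7. A match is a description of these letters and was not tested as a binding site. Genes that were not called also held matches, such as Ndufaf4 (NRF1), Ndufa9 (YY1) and Ndufaf1 (GABP). No relation of the letters to fold change was tested.
Ndufa11, chr17:56717512-56717761, + strand: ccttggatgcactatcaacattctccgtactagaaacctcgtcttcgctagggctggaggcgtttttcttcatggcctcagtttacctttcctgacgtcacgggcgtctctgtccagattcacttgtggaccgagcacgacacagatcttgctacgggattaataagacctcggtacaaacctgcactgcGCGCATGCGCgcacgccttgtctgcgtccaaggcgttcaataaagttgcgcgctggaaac
Ndufa8, chr2:36049339-36049588, - strand: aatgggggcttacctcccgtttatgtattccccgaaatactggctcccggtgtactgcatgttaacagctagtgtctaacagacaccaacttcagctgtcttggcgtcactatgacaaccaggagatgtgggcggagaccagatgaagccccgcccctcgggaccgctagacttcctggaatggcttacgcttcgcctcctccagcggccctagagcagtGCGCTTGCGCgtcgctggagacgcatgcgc
Ndufs5, chr4:123718187-123718436, - strand: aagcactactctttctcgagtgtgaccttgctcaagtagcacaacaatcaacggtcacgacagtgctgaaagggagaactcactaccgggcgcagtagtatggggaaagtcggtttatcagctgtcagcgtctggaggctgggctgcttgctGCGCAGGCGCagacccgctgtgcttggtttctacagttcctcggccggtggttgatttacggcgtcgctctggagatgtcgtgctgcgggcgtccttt
Ndufb7, chr8:83566508-83566757, + strand: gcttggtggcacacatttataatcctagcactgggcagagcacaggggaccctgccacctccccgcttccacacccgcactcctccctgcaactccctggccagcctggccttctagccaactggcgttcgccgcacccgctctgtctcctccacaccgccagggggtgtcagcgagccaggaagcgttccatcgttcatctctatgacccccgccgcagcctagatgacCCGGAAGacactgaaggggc

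The 8 assembly factors each had a lower mean TPM than any subunit, and none passed the test (3 of 8 at an unadjusted p under 0.05, edgeR, against 24.7% of all genes). Their TPM summed to 220, 218 and 232 in het 5, 6 and 7 and to 230 and 257 in WT 7 and 8, so the groups overlapped. Ndufaf3 (ENSMUSG00000070283), which helps build the ubiquinone module, was at 20.2, 17.1 and 17 CPM in het 5, 6 and 7 and 25.5 and 23.6 CPM in WT 7 and 8. Its het libraries were all lower, with a log2 fold change of -0.44 (SE 0.14, edgeR adjusted p = 0.082). Ndufaf8 (ENSMUSG00000078572), the partner of the Ndufs7-modifying enzyme Ndufaf5, was at 14.7, 9.09 and 9.57 CPM in het 5, 6 and 7 and 20.2 and 15.1 CPM in WT 7 and 8. Het 5 came just under WT 8, and the log2 fold change was -0.67 (SE 0.23, edgeR adjusted p = 0.096). Without WT 7 it was -0.44. Ndufaf2 (ENSMUSG00000068184), a relative of Ndufa12 that holds its place during assembly, was at 18, 14.4 and 12.9 CPM in het 5, 6 and 7 and 21.2 and 20.7 CPM in WT 7 and 8. Its groups did not overlap, with a log2 fold change of -0.48 (SE 0.16, edgeR adjusted p = 0.096).

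Ndufaf4 (ENSMUSG00000028261), the partner of Ndufaf3, was at 63, 49 and 66.1 CPM in het 5, 6 and 7 and 28.9 and 63.4 CPM in WT 7 and 8. WT 7 alone was low, while WT 8 lay among the het libraries. Its log2 fold change was 0.37 (SE 0.38, edgeR adjusted p = 0.618), which became -0.092 without WT 7 and 1.05 without WT 8. The other factors, Ndufaf1, Ndufaf5, Ndufaf6 and Ndufaf7, had log2 fold changes from -0.59 (Ndufaf6) to -0.12 (Ndufaf1). Ndufaf1 works in the membrane arm assembly complex, and Ndufaf7 is a methyltransferase. Of 14 assembly factors with other names, 13 were found and tested, 0 were called, 4 had an unadjusted p under 0.05 (24.7% of all genes), and their median log2 fold change was -0.24. With both trends removed, 1 had an unadjusted p under 0.05 and the median was -0.058.

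Ndufa4, now counted as a subunit of cytochrome c oxidase, had the highest mean TPM of all members (1675 TPM). In counts it stood at 419, 282 and 316 CPM in het 5, 6 and 7 and 525 and 426 CPM in WT 7 and 8. Het 5 lay just under WT 8, and the log2 fold change was -0.49 (SE 0.18, edgeR adjusted p = 0.111). Its hypoxia-inducible relative Ndufa4l2 was at 11.5, 12.7 and 12.1 CPM in het 5, 6 and 7 and 16.4 and 14.5 CPM in WT 7 and 8. All het libraries were lower, with a log2 fold change of -0.36 (SE 0.16, edgeR adjusted p = 0.188), which turned to 0.14 with length and GC trends removed.

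The copies Ndufb4c, Ndufb4b and Ndufa12-ps did not pass the test, and their levels are uncertain because they share sequence with their parent genes. Ndufb4b could not be matched to a sequence, so its identity with Ndufb4 was not measured. Over the 387 coding bases of Ndufb4, all 387 were identical in Ndufb4c, and 397 of 399 aligned bases were identical between Ndufa12 and Ndufa12-ps. A stretch of 72 bases of each pair is shown, from the GENCODE transcripts of GRCm38, with differing bases in capitals.
Ndufb4: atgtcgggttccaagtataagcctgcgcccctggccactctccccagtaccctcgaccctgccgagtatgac
Ndufb4c: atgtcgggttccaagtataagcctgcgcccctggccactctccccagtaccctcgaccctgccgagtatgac
Ndufa12: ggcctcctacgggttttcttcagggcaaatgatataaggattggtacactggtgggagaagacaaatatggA
Ndufa12-ps: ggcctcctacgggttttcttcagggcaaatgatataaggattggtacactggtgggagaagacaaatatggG
RSEM divides such reads by its model, so counts of Ndufb4 and Ndufb4c cannot be told apart beyond that division. Ndufb4 took 72.02% to 75.4% of the summed CPM of Ndufb4, Ndufb4b and Ndufb4c in the 5 libraries. That sum was 159, 80.5 and 105 CPM in het 5, 6 and 7 and 188 and 146 CPM in WT 7 and 8, so het 5 overlapped with WT. Ndufb4b was the least even of the 3 copies, at 11.8, 1.75 and 2.58 CPM in het 5, 6 and 7 and 9.59 and 5.55 CPM in WT 7 and 8.

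Fold change followed transcript length among the members and among all genes tested. Pearson's r between log10 length and log2 fold change was 0.69 over the 50 members and 0.23 over all genes. Spearman's rho was 0.57 over the members and 0.45 over all genes. Both are given as a description across genes that share the same 5 libraries. Members under 700 bases had a median of -0.61, against -0.43 for all genes of that length. From 700 to under 1000 bases the medians were -0.54 and -0.40, and from 1000 to under 2000 bases -0.35 and -0.18. In these 3 ranges, 45 of 48 members lay below the median of their range. Only Ndufs1 and Ndufaf4 were 2000 bases or longer, where the medians were 0.26 and 0.12, and both lay above the median of their range.

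RSEM's mean fragment length was 376, 429 and 394 bases in het 5, 6 and 7 and 342 and 411 bases in WT 7 and 8 (of the 50 members, 23 are shorter than 700 bases). With length and GC trends removed, 45 of 50 members still had a log2 fold change below 0, against 52.7% of all genes, and 6 had an unadjusted p under 0.05, against 11.2%. None passed the adjusted threshold, which 0.00609% of all genes passed as lower and 0.0244% as higher. Ndufs7 then stood at -0.18 and Ndufs4, a late-joining peripheral arm subunit, at -0.41. How much of the difference in the members goes with length and how much with genotype cannot be told apart in these 5 libraries.

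**Figure D3:**
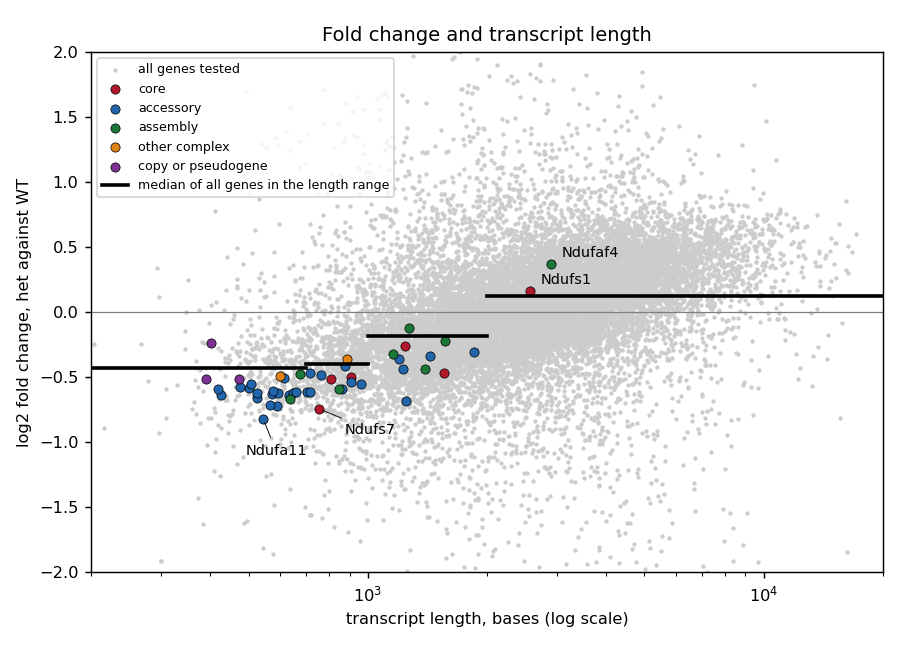
Log2 fold change of het against WT is plotted against transcript length on a log axis for all genes tested (grey, those beyond the axis limits not drawn) and the Nduf genes by class, with black lines at the median of all genes in each length range. Most members lie below these lines, and Ndufs1 and Ndufaf4, the longest, lie above 0.

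Summed over the 37 subunits, TPM were 16432, 15167 and 16810 in het 5, 6 and 7 and 20869 and 20041 in WT 7 and 8. The het mean of 16137 ± 860 (SD, n = 3) was 0.789 of the WT mean of 20455 ± 585 (SD, n = 2), and the groups did not overlap. With mitochondrially encoded genes left out of the total, the ratio was 0.813. Core subunits gave a ratio of 0.811 and accessory subunits 0.784. The 7 complex I subunits encoded by mitochondrial DNA went the other way in TPM: they summed to 74666, 73153 and 66710 in het and 59208 and 52438 in WT. In CPM the groups overlapped, at 53486, 47070.0 and 42166 in het and 42335 and 37770.0 in WT. In the edgeR fit, 0 of these 7 genes were called, 1 had an unadjusted p under 0.05 (24.7% of all genes), and their median log2 fold change was 0.12. The largest was mt-Nd5, a proton-pumping core subunit, at 0.62 (SE 0.17, edgeR adjusted p = 0.051). With the length trend removed, 0 were called, all 7 were above 0 and the median was 0.52. With length and GC trends removed, 0 were called, 6 were above 0 and the median was 0.21. Of the 7, 2 then had an unadjusted p under 0.05, against 11.2% of all genes.

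Markers of atrial cardiomyocytes, the cells richest in mitochondria here, were summed beside the subunits. Over 7 markers, the sum stood at 60037 to 68306 CPM in het and 87146 to 91021 CPM in WT. In the edgeR fit 2 of 7 were lower, against 2.66% of all genes. Of these markers only Myh6 overlapped between groups, with 25563 CPM in het 7 and 25458 CPM in WT 8. The 37 subunits together were 10.7%, 9.57% and 9.60% of that marker sum in het 5, 6 and 7 and 10.6% and 9.53% in WT 7 and 8, so this share overlapped between groups. Macrophage markers (5 genes) were at 194 to 258 CPM in het and 168 to 175 CPM in WT, endothelial markers (4 genes) at 711 to 759 and 621 to 638 CPM, and erythroid markers (4 genes) at 1681 to 3485 and 406 to 1436 CPM. Skeletal muscle markers (5 genes) were at 548 to 705 CPM in het and 934 to 1068 CPM in WT, of which Ckm, also a heart muscle gene, made up nearly all (544 CPM in het 5, 1060.0 CPM in WT 8). Acta1 overlapped between groups, and Myh4 and Mylpf were under 1 CPM in every library. Fibroblast markers (6 genes) overlapped, at 1570 to 1652 and 1134 to 1576 CPM, as did the lists for ventricular cardiomyocytes, smooth muscle, lymphocytes, Schwann cells and white and brown adipocytes. In the edgeR fit, 1 gene was higher in each of the fibroblast and macrophage lists, against 2.99% of all genes. In each of the ventricular and skeletal muscle lists 1 gene was lower, against 2.66%. Without het 7, the library with Ucp1, the subunit median was -0.56. In bulk tissue, fewer cells of a type and less RNA per cell cannot be told apart, and the part of these markers in the subunit result was not tested.

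**Figure D4:**
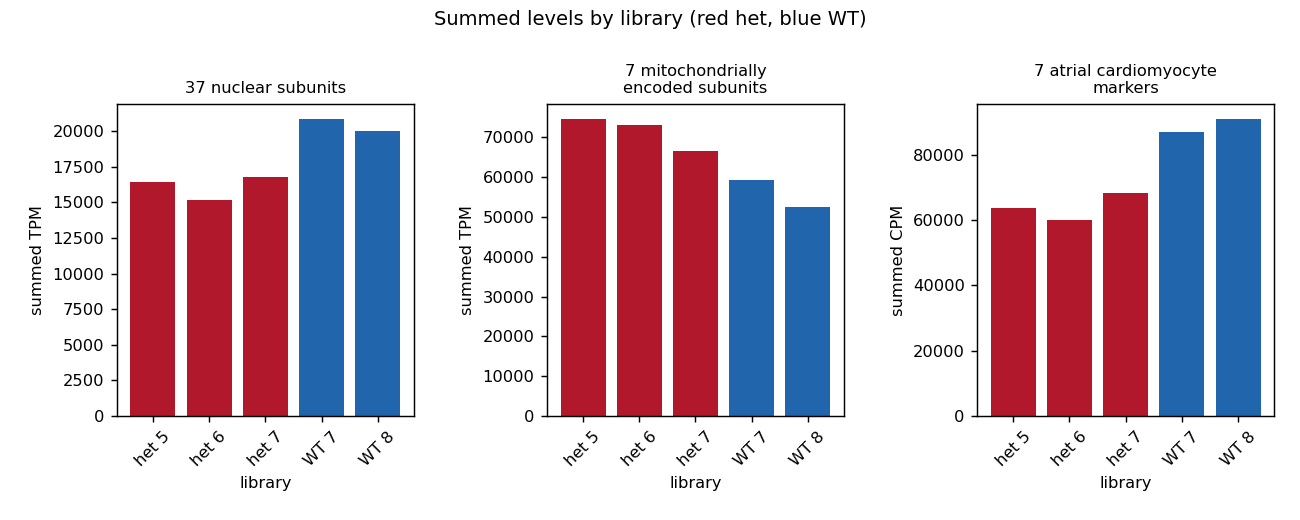
Bars give the summed level in each of the 5 libraries (red het, blue WT) of the 37 nuclear subunits in TPM, the 7 mitochondrially encoded subunits in TPM and 7 atrial cardiomyocyte markers in CPM. Nuclear subunits and cardiomyocyte markers are lower in every het library than in either WT library, and mitochondrially encoded subunits are higher in TPM.

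Other genes of the pathway were set beside the members. Of 38 nuclear subunits of complexes II to V tested, 6 were lower and 0 higher, against 2.66% and 2.99% of all genes, with a median log2 fold change of -0.52. With length and GC trends removed, 0 of them were called and the median was -0.14. In that setting 34 of the 38 were below 0, against 52.7% of all genes. An unadjusted p under 0.05 (edgeR) was found for 9, against 11.2%. Of 7 regulators of respiratory chain genes, 1 was higher, against 2.99% of all genes: Ppargc1a, a transcriptional coactivator of mitochondrial biogenesis, at 113, 105 and 98.6 CPM in het 5, 6 and 7 and 57.1 and 71.5 CPM in WT 7 and 8. The groups did not overlap, and its log2 fold change was 0.72 (SE 0.14, edgeR adjusted p = 0.025), or 0.26 with length and GC trends removed (edgeR adjusted p = 0.439), where no regulator was called.

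The authors' deposited table holds their own comparison of het and WT; which animals and which model are behind it is not given in the sources used here. In it, 28 of the 50 members had a log2 fold change above 0 and 22 below, against 44.3% of its genes above 0. The median over the members was 0.046, with a range from -0.39 (Ndufb4c) to 0.77 (Ndufa12-ps). No member was called there (0%, as for all its genes), and the smallest adjusted p in the authors' deposited table was 0.99998 for the members. For core subunits, 6 of 7 values in the authors' deposited table were below 0 (median -0.12). For accessory subunits, 22 of its 30 values were above 0 (median 0.15). Ndufs7 stood at -0.23 (authors' interval -0.72 to 0.27), Ndufa11 at -0.018 (-0.56 to 0.53) and Ndufa10 at 0.51 (-0.069 to 1.09) in the authors' deposited table. Among the 7 mitochondrially encoded subunits, all were above 0 in it, with a median of 0.91.

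**Figure D5:**
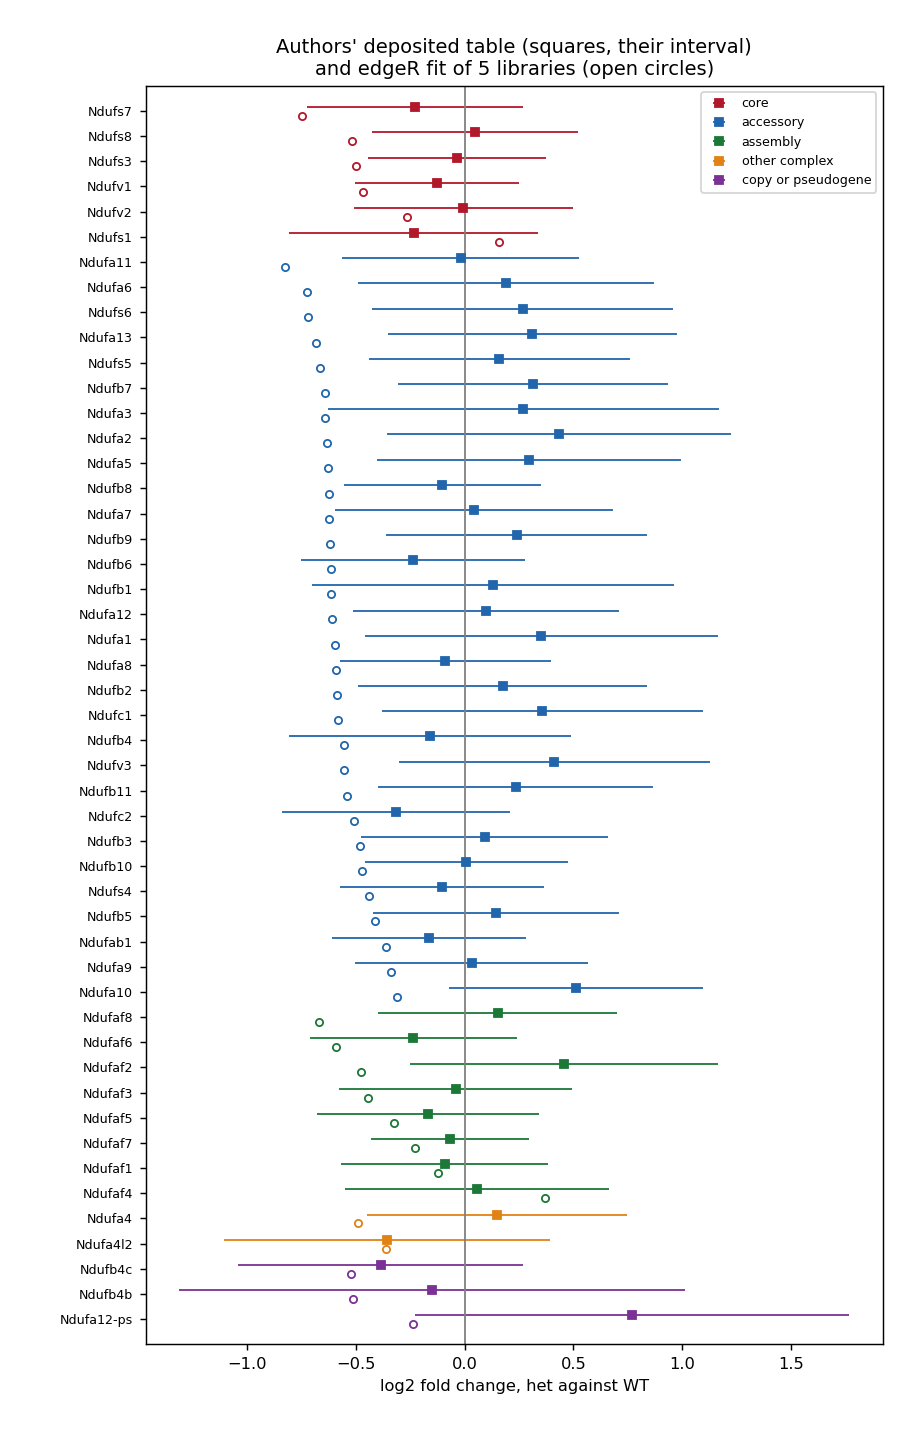
Squares give the log2 fold change of het against WT in the authors' deposited table with the authors' interval, and open circles the edgeR value from the 5 libraries, with a Nduf gene in each row. The intervals shown all include 0, and 28 squares lie above it.

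Transcript usage was read from the deposited isoform percent, the share of a gene's TPM in each transcript. Of 41 members with several transcripts and a mean of at least 5 TPM, 15 had a leading-transcript share that did not overlap between groups, against 27.4% of 8358 genes. In 7 of them the means differed by at least 5 percentage points, against 21.9%. With 3 against 2 libraries the smallest possible two-sided exact permutation p is 0.2, so no share can pass 0.05. The widest gap was in Ndufv2, where transcript ENSMUST00000024909 held 41.2%, 51.4% and 47.2% in het 5, 6 and 7 and 58.8% and 61.7% in WT 7 and 8. The longer ENSMUST00000143987 held most of the rest, at 52.3%, 44.1% and 47.5% in het and 35.8% and 34.4% in WT. For Ndufs1, transcript ENSMUST00000027111 held 70.9%, 71.2% and 68.9% in het and 76.8% and 77.7% in WT. The remaining 5 of the 7 were Ndufaf1, Ndufa4, Ndufc2, Ndufc1 and Ndufa10. Taken from expected counts in place of TPM, the shares of Ndufaf1, Ndufc2 and Ndufc1 overlapped between groups. The other 9 members have a single transcript. Of the 41 members, 16 had a leading transcript with a mean of at least 90% of the gene's TPM in both groups, among them Ndufs7 and Ndufa11.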

How the data were processed

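Stranded polyA libraries were made from atrial RNA, per the labels' protocols. The submitters' processing notes list STAR and RSEM with Trim Galore, FastQC, MultiQC and SAMtools, as well as limma and edgeR, and give GRCm39 as the build but no versions. Per the file headers, each gene table holds expected counts estimated by the authors with RSEM (not normalized), TPM values that the authors scaled to length and library total, and lengths in bases. The deposited transcript tables also hold the isoform percent. The authors' own het against WT table contains deposited log2 fold changes, moderated scores and p-values.

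Sample titles gave the groups. After rounding of the expected counts, edgeR's default filter kept 16412 of 57186 genes. TMM scaling and the quasi-likelihood test of edgeR with robust dispersion were used, and p-values were adjusted over all kept genes by Benjamini-Hochberg (threshold 0.05). The common biological coefficient of variation was 0.18. CPM divide expected counts by the library total after TMM scaling, not by the plain total. To remove length and GC trends, a smooth curve was fitted to each library with mgcv and passed to edgeR as an offset. GC was known for 96.6% of kept genes, from a GRCm38 annotation, so no coordinates are given for the deposited data. Tried as alternatives were DESeq2, limma-voom (plain or with quality weights), limma-trend on log2(TPM + 1) and on log2(TPM + 0.1), other scalings and filters, and leaving out each library. The code was tested on simulated data, where a trend on length raised the number of false calls and its removal lowered it. The simulated trend ran along the same length values that the removal uses, and removal of GC was not tested. No set of short genes with a shared shift was simulated, so loss of a true difference by the removal was not tested. Versions were 4.3.3 for R, 4.0.16 for edgeR, 3.58.1 for limma, 1.42.0 for DESeq2 and 1.9.3 for mgcv.

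The members, gene lists and alternatives were chosen with earlier results of these data known. Values in every library are given for members called by edgeR, for the 2 of highest TPM and the 2 of smallest p not called among core subunits, accessory subunits, assembly factors and genes of another complex, and for members with a fold change above 0. Ndufb4b was added after its values were seen. For 1 member, which is included in every count, median and sum, no values are reported here and it is not drawn as a member in the figures.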

Additional observations from a re-analysis of the deposited data

How the results depend on the processing

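The count of 11 Nduf genes lower in het was 9 to 12 under library size alone, RLE size factors, upper-quartile scaling, a mean of at least 1 CPM and without mitochondrially encoded genes. Of all genes, 2.38%, 2.78%, 3.46%, 2.34% and 2.65% were lower under these settings, in that order. It was 30 with every gene with a count tested (2.87% of all genes lower), 22 with DESeq2 (4.75%), 3 with limma-voom (1.35%) and 0 with limma-voom with quality weights, limma-trend on log2(TPM + 1) or log2(TPM + 0.1), the length trend removed, or the length and GC trends removed (0%, 0.00609%, 0.0183%, 0.0548% and 0.00609%). With one library left out it ranged from 0 to 6; the cause was not tested. The count of genes higher in het was 0, with a range of 0 to 1 with one library left out (1 without WT 8, Ndufaf4). The subunit median of -0.59 was -0.21 with the length trend or the length and GC trends removed. With limma-trend at either pseudocount the subunit and accessory medians were both -0.36. Over all genes tested the median was 0.099 with limma-trend on log2(TPM + 1), against -0.0014 in the edgeR fit. The core median was -0.29 with limma-trend at either pseudocount, -0.17 with the length trend and -0.14 with both trends removed. The accessory median was -0.21 and -0.22 with these 2 removals. The assembly factor median was -0.17 with limma-trend on log2(TPM + 1), -0.17 on log2(TPM + 0.1), -0.081 with the length trend and -0.17 with both trends removed. The count of 15 leading transcripts ranged from 19 to 23 with one library left out. Smaller groups overlap less often, and the share over all genes is not given for these settings. No result about the members is therefore read from this range. The fold change of Ndufa4l2 turned to 0.14 with both trends removed, and that of Ndufaf4 to -0.092 without WT 7 and 1.05 without WT 8. Fitting without one WT library assumes that the lone WT library varies like the het ones. Depth limits the copies most: Ndufa12-ps had 0.492 to 1.45 CPM. No paired analysis was made, because each library is labelled as a separate animal and the labels name no pairs.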

Other observations

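Ratios within a library, chosen after the values were seen, set apart the 2 groups. The TPM of Ndufs1 divided by that of Ndufs7 was 0.384, 0.434 and 0.426 in het 5, 6 and 7 and 0.217 and 0.240 in WT 7 and 8. These are the core subunits of highest and lowest log2 fold change, so a difference in their ratio was set by the choice. Ndufs1 is 2573 bases long and Ndufs7 755 bases. With length and GC trends removed, their log2 fold changes were 0.012 and -0.18. The summed TPM of the nuclear subunits divided by that of the mitochondrially encoded ones was 0.220, 0.207 and 0.252 in het and 0.352 and 0.382 in WT. Neither ratio overlapped between groups. By contrast, core over accessory subunits gave 0.176, 0.223 and 0.227 in het and 0.193 and 0.210 in WT, with overlap. These ratios are descriptions of 5 libraries, with no test.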
